A study of Mus musculus with 24 samples.

Results

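Hepatokines are proteins that the liver releases into the blood to act on other organs. Described here are 9 genes for hepatokines, activins, an activin-binding protein and the leptin receptor. Inhba, Inhbb, Inhbc and Inhbe encode the beta subunits of the activins, and Fst the activin-binding protein follistatin. Gdf15, Fgf21 and Lect2 are hormone genes, and Lepr is the leptin receptor gene. The 9 genes were chosen by gene symbol, paired with the identifiers of the deposited table through the GENCODE M21 annotation of mouse genome build GRCm38. The table holds 22392 genes, and these are 9 of them. All 9 were among the 14040 genes with a mean level high enough to be tested.

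The data are liver RNA sequencing from 24 mice of the CD2F1 strain, 8 per group, each library from its own mouse. CT mice had a sham injection and no tumour. C26 mice had been injected with cells of C26, a mouse colon carcinoma line whose tumours bring on wasting (cachexia), and were untreated. C26-CHO mice bore that tumour as well and were fed cholestyramine, which traps bile acids inside the intestine, at 2% of the diet (w/w) on days 1 to 10 counted from the injection. The labels used here give no age, sex, tumour weight, sham vehicle or day of liver collection.

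Activins are dimers of beta subunits and belong to the TGF-beta family of secreted factors. They bind receptor kinases on the target cell (Acvr2a, Acvr2b and Acvr1b, among others), which phosphorylate SMAD proteins that then enter the nucleus and change transcription. Follistatin wraps around an activin and keeps it from its receptors. Activin A, from Inhba, is known as a driver of muscle wasting, while Inhbc and Inhbe are expressed mainly in hepatocytes. GDF15 acts on appetite through the brainstem receptor GFRAL, FGF21 is a fasting and amino acid stress hormone that needs the co-receptor beta-Klotho, and LECT2 is a hepatokine that binds MET and TIE1. The leptin receptor gene makes the long signalling receptor and, by splicing, short and soluble forms.

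Levels are given as normalised read counts, which are reads divided by the size factor of the library, and fold changes as log2 differences with the standard error (SE) of the limma fit. Adjusted p-values are from limma with Benjamini-Hochberg adjustment over the 14040 genes, and a gene is called when the adjusted p is under 0.05. Libraries held 19.9 M to 30.5 M reads. On the leading principal component (71.9% of the variance) CT livers scored -83.15 to -75.36 and C26 livers 28.81 to 54.62. C26-CHO 1, at -13.41, fell in the gap, C26-CHO 7 had 22.32, and the remaining C26-CHO livers had 34.54 to 50.48. Results that rest on C26-CHO 1 and C26-CHO 7 are therefore also given without them. The ranking of genes that followed each member leaves out C26-CHO 1 alone.

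Of the 9 genes, 5 were called in C26 vs CT. Inhbb, Inhbc, Fst and Fgf21 were higher in C26 than in CT and Lect2 was lower. Across the transcriptome 66.3% of the tested genes were called in C26 vs CT, 33.3% higher and 32.9% lower, so the number called among the 9 is no more than the background gives. In bulk liver RNA, fewer cells of a type and less RNA per cell cannot be told apart. The median log2 fold change of the 9 was 0.43, against 0.01 over all tested genes. With cholestyramine none of the 9 was called against untreated tumour mice, where the background was 0.705% (0.556% higher and 0.150% lower). In C26-CHO vs CT, with a background of 62.2% (31.3% higher and 30.9% lower), 6 were called higher (Inhbb, Inhbc, Inhbe, Fst, Fgf21 and Lepr) and 1 lower (Lect2), with a median of 0.74 against 0.00 over all tested genes. C26 vs CT and C26-CHO vs CT share their control livers, so the values of both are not independent of each other.

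**Figure D1:**
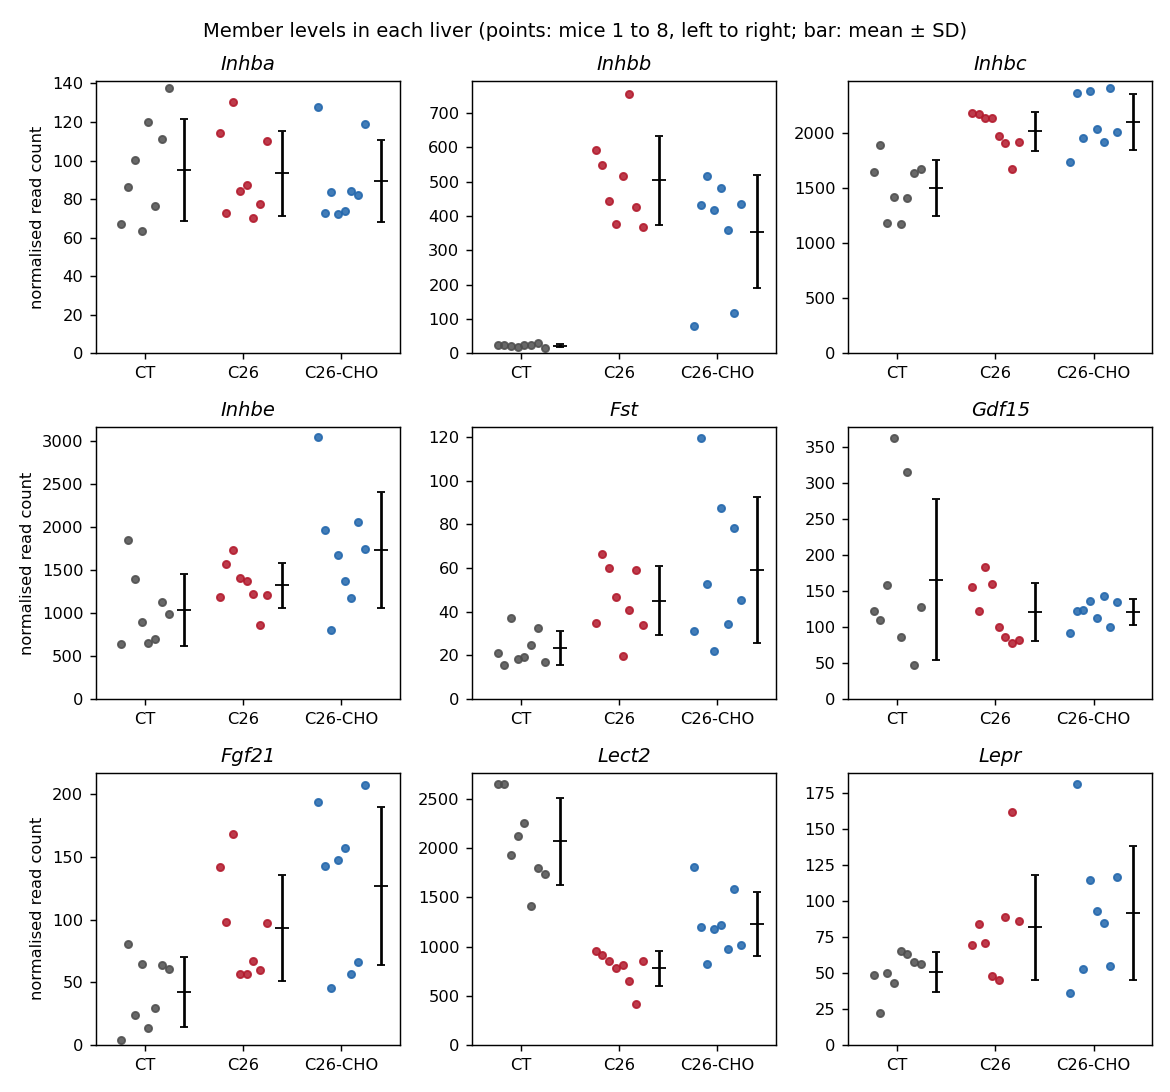
Level of each of the 9 genes in each liver, as a normalised read count on linear axes that start at 0 and differ between panels. Points are mice 1 to 8 from left to right and bars are the mean ± SD (n = 8); Inhbb lies between 14.2 and 28.7 in CT and between 368 and 755 in C26, and Lect2 is at least 1412 in CT and at most 954 in C26.

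Inhbb, on chromosome 1 at 119415465 to 119422248 on the minus strand of GRCm38, encodes the subunit of activin B, which is known in mouse to raise hepcidin in hepatocytes during inflammation. Its level in the 8 CT livers ran from 14.2 to 28.7 with a median of 22.96, resting on 16 to 31 reads per library. In C26 livers it ran from 368 to 755 with a median of 480.0, on 308 to 723 reads. Every C26 liver therefore lay far above every CT liver. Group means were 22.2 ± 4.47 and 503 ± 130 (SD, n = 8 each), a ratio of 22.7. The limma difference of mean log2 levels was 4.43 (SE 0.300, adjusted p = 1.65e-12). Groups did not overlap for 35.0% of all tested genes in this comparison, and among the 9 genes this held for Inhbb and Lect2.

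Among C26-CHO livers Inhbb ran from 78.3 to 517 with a median of 424. C26-CHO 1 had 78.3 and C26-CHO 7 had 117, and the other C26-CHO livers lay between 358 and 517, inside or just under the C26 range. All 8 stayed above the highest CT liver; such a gap to CT held for 25.2% of all tested genes and, of the 9, for Inhbb alone, while no member was free of overlap between C26-CHO and C26 (0.135% of all tested genes). The mean was 354 ± 165 (SD, n = 8), a ratio of 15.99 to the CT mean and 0.704 to the C26 mean. The limma difference of mean log2 levels was 3.72 against CT (SE 0.300, adjusted p = 6.04e-11). Against C26 it was -0.71 (SE 0.300, limma unadjusted p = 0.0259, adjusted p = 0.295). In C26-CHO, 7 of 8 livers lay below the C26 mean. Without C26-CHO 1 and C26-CHO 7 the difference from C26 was -0.16 (adjusted p = 0.892), and over all alternatives of the processing its adjusted p ran from 0.172 to 0.892.

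The 250 bases before the Inhbb start, chr1:119422249-119422498 on the minus strand, are shown because Inhbb changed most of the 9 genes; the sequence is RefSeq's, on build GRCm38.p6, written 5′ to 3′.
Inhbb promoter: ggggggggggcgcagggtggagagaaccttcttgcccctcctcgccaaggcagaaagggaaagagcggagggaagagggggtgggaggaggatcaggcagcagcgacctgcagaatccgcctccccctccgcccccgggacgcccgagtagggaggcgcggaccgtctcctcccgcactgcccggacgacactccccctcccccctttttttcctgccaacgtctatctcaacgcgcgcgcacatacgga
It is 68.0% G and C, against a median of 52.4% over 32851 mouse promoter windows of the same length. Of the motifs searched on both strands in the windows of 8 of the 9 genes (Fst is not in the sequence table used), none was found in it: TTCNNNGAA, the core of a STAT site, is in 7.02% of all windows, TGATGNAA, the core of a composite ATF4 and C/EBP site, in 3.45%, TGTTTAC, a FOXO site, in 3.17%, and GTCTAGAC, a palindromic SMAD site, in 0.167%. No match says only that these letters are not in the window.

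Inhba, on chromosome 13 at 16011851 to 16031621 on the plus strand, encodes the subunit of activin A. It ran from 63.3 to 138 in CT, with a median of 93.3, from 70.0 to 130 in C26 with a median of 85.8, and from 72.3 to 128 in C26-CHO with a median of 82.9. The 3 groups covered nearly the same range. Means were 95.3 ± 26.5, 93.3 ± 22.1 and 89.4 ± 21.5 (SD, n = 8 each). The log2 difference C26 vs CT was -0.01, with a 95% interval of -0.36 to 0.33 (adjusted p = 0.944), so a change of the size seen for Inhbb lies outside it. Against C26 the C26-CHO difference was -0.06, with an interval of -0.40 to 0.28 (adjusted p = 0.924).

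Inhbc and Inhbe lie next to each other on chromosome 10, on the minus strand, at 127356322 to 127370431 and 127348857 to 127354411, with 1910 bases between them. They encode the subunits of activins C and E. Inhbc ran from 1175 to 1893 in CT with a median of 1528, from 1680 to 2188 in C26 with a median of 2060.4, and from 1744 to 2414 in C26-CHO with a median of 2026. In each tumour group 7 of 8 livers lay above every CT liver, and the lowest liver lay among the CT livers. Means rose from 1506 ± 253 in CT to 2017 ± 178 in C26 and 2105 ± 252 in C26-CHO (SD, n = 8 each). The log2 fold change was 0.43 in C26 vs CT (SE 0.0907, adjusted p = 1.58e-04) and 0.49 in C26-CHO vs CT (SE 0.0907, adjusted p = 4.11e-05). The difference between the tumour groups was 0.06, with a 95% interval of -0.13 to 0.24 (adjusted p = 0.858).

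Inhbe varied more between mice of a group than Inhbc. It ran from 643 to 1849 in CT with a median of 944, from 864 to 1735 in C26 with a median of 1296, and from 808 to 3046 in C26-CHO with a median of 1711. CT 2 and CT 3 stood above the other CT livers, and C26-CHO 1 had the highest value of all. Means were 1033 ± 420, 1322 ± 265 and 1732 ± 674 (SD, n = 8 each). C26 vs CT gave 0.42 (SE 0.225, adjusted p = 0.101), with 7 of 8 C26 livers above the CT mean. That difference was called under 2 of 35 alternatives, quantile normalisation (0.51, adjusted p = 0.0463) and the fit without CT 2 (0.56, adjusted p = 0.0252), in a range from 0.0252 to 0.197. C26-CHO vs CT gave 0.74 (SE 0.225, adjusted p = 0.00586), or 0.53 without C26-CHO 1 and C26-CHO 7 (adjusted p = 0.0372). Between the tumour groups the difference was 0.32, with a 95% interval of -0.14 to 0.78 (adjusted p = 0.594).

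Per kilobase of exon, where levels can be compared between genes, Inhbc and Inhbe together made up 96.8% to 98.6% of the beta subunit level in CT livers, 86.9% to 93.3% in C26 livers and 89.9% to 97.7% in C26-CHO livers. This share was computed after the values were known. Inhbc took 79.3% ± 5.58 in CT, 74.1% ± 2.11 in C26 and 72.9% ± 5.54 in C26-CHO (SD, n = 8 each), and Inhbe took 18.7% ± 5.59, 16.8% ± 2.15 and 20.7% ± 7.47. Inhbb went from 0.523% ± 0.141 of the subunit level in CT to 8.09% ± 2.05 in C26 and 5.49% ± 2.76 in C26-CHO (SD, n = 8 each). The lowest tumour value, 1.19% in C26-CHO 1, lay above the highest CT value of 0.771%. Both differences from CT gave the smallest p that 8 mice against 8 allow (p = 0.000155 in a two-sided exact permutation test, 0.000932 after adjustment over 12 tests). Inhbb levels were themselves free of overlap between CT and each tumour group, so these p-values restate that gap and add no separate result. C26-CHO vs C26 gave a difference of -2.60 percentage points (exact permutation test, p = 0.0494, adjusted p = 0.0847). Without C26-CHO 1 and C26-CHO 7 that difference was -1.24 points (exact permutation test, adjusted p = 0.392).

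**Figure D2:**
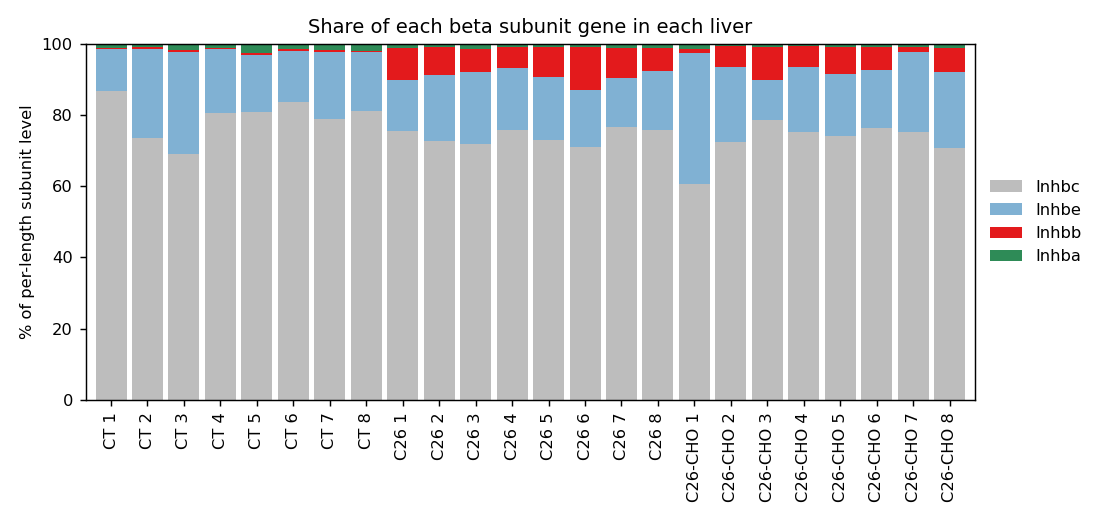
Share of each beta subunit gene in the summed level per kilobase of exon of Inhba, Inhbb, Inhbc and Inhbe, in percent, with 1 bar for each of the 24 livers. The Inhbb part covers 0.300% to 0.771% in CT livers, 5.83% to 12.3% in C26 livers and 1.19% to 9.08% in C26-CHO livers.

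The Inhba share was 1.497% ± 0.508 in CT, 0.998% ± 0.217 in C26 and 0.912% ± 0.244 in C26-CHO (SD, n = 8 each). Its difference from CT passed the test for C26-CHO (-0.585 points, exact permutation test, adjusted p = 0.0305). Without C26-CHO 1 and C26-CHO 7 it was -0.620 points and, with 2 mice fewer, did not pass (exact permutation test, adjusted p = 0.0573). For C26 the adjusted p was 0.0578 (exact permutation test). A share falls when another part of the sum rises, and the level of Inhba itself was not called. Shares depend on the annotated length of Inhbe, 5319 exon bases in GENCODE but 2756 from the RefSeq start: with the latter, Inhbe takes 30.4% in CT, 28.0% in C26 and 33.0% in C26-CHO, and Inhbb 0.447%, 7.01% and 4.71%.

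Counting could touch these genes in 2 ways that the labels do not settle. Identical stretches between the transcripts of the 4 subunits were at most 41 bases long (Inhba and Inhbe), and the read length is not given. Annotated antisense genes or pseudogenes overlap Inhba, Inhbc, Inhbe and, for 289 bases, Fst; they are not analysed here, and use of strand in counting is not given, so reads from them cannot be told apart from those of the member genes.

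Fst, on chromosome 13 at 114452290 to 114458951 on the minus strand, encodes follistatin, the extracellular antagonist of activins. It had few reads, between 17 and 141 per library in all groups together. Its level ran from 15.5 to 37.0 in CT with a median of 20.3, from 19.5 to 66.4 in C26 with a median of 43.6, and from 22.1 to 119 in C26-CHO with a median of 48.96. In each tumour group 5 of 8 livers lay above every CT liver, and the lowest tumour livers lay among the CT livers. Means were 23.2 ± 7.72, 45.0 ± 15.9 and 58.9 ± 33.4 (SD, n = 8 each). The log2 fold change was 0.90 in C26 vs CT (SE 0.291, adjusted p = 0.00863) and 1.17 in C26-CHO vs CT (SE 0.291, adjusted p = 0.00113). The tumour groups differed by 0.27, with a 95% interval of -0.33 to 0.87 (adjusted p = 0.767).

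Fgf21, on chromosome 7 at 45613886 to 45615490 on the minus strand, is known as a target of the fasting receptor PPAR alpha and of ATF4, the transcription factor of the integrated stress response. It ran from 3.53 to 80.2 in CT with a median of 45.0, from 56.2 to 169 in C26 with a median of 82.0, and from 45.4 to 207 in C26-CHO with a median of 145. CT 1, with 4 reads, was the lowest of all livers. All 8 C26 livers lay above the CT mean and 4 above every CT liver; for C26-CHO these counts were 8 and 5. Means were 42.4 ± 28.2, 93.2 ± 42.5 and 127 ± 63.0 (SD, n = 8 each). The log2 fold change was 1.45 in C26 vs CT (SE 0.468, adjusted p = 0.00836) and 1.82 in C26-CHO vs CT (SE 0.468, adjusted p = 0.00152). C26-CHO vs C26 gave 0.37, with a wide 95% interval of -0.59 to 1.33 (adjusted p = 0.812).

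The Fgf21 and Inhbe windows were the ones among the promoters of the 8 matched genes that held any of the motifs searched, in both cases TGATGNAA on the opposite strand, read as TTGCATCA and shown in capitals below. In Fgf21 it lies 139 to 132 bases before the start. In Inhbe it lies 181 to 174 bases before the RefSeq start, inside the first exon of the longer GENCODE transcript, so 28 bases around it are shown (chr10:127352012-127352039, minus strand). The Fgf21 window is chr7:45615491-45615740 on the minus strand, and the sequences are RefSeq's, on GRCm38.p6, written 5′ to 3′.
Fgf21 promoter: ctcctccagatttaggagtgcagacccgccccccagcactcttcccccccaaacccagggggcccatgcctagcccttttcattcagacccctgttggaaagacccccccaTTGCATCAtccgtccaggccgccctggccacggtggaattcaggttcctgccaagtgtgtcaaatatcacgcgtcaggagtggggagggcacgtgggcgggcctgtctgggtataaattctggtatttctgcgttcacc
Inhbe site: atcctctttcTTGCATCAtgcatgtcca
A match is a description of the letters and not evidence of binding. Within groups, Fgf21 and Inhbe had r = 0.65 in CT, 0.43 in C26 and 0.67 in C26-CHO over 8 mice each. Without the 2 mice of each group farthest from its Inhbe median, r was 0.84 in CT, -0.31 in C26 and 0.24 in C26-CHO. None of these passed adjustment for the 108 relations examined (exact permutation test).

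Gdf15, on chromosome 8 at 70629393 to 70632456 on the minus strand, encodes a stress-induced TGF-beta relative that suppresses appetite. It ran from 47.2 to 362 in CT with a median of 125, from 78.6 to 183 in C26 with a median of 111, and from 92.3 to 143 in C26-CHO with a median of 123. CT 4 and CT 6 were higher than any tumour liver and CT 7 was lower than any, so the CT range enclosed both tumour groups. Means were 166 ± 112, 121 ± 40.6 and 121 ± 17.99 (SD, n = 8 each). The log2 difference was -0.25 in C26 vs CT, with a 95% interval of -0.84 to 0.34 (adjusted p = 0.458), and -0.20 in C26-CHO vs CT, with an interval of -0.79 to 0.40 (adjusted p = 0.565). Between the tumour groups it was 0.05 (adjusted p = 0.964), and edgeR and DESeq2 both gave -0.01.

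Lect2, on chromosome 13 at 56542464 to 56548502 on the minus strand, was the member with the highest level in control liver. It ran from 1412 to 2655 in CT with a median of 2023, on 1475 to 3080 reads, and from 412 to 954 in C26 with a median of 832, on 357 to 1101 reads. Every C26 liver lay below every CT liver. Means were 2069 ± 441 and 778 ± 174 (SD, n = 8 each), a fall by a factor of 2.66. The limma difference of mean log2 levels was -1.42 (SE 0.166, adjusted p = 3.53e-08).

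In C26-CHO livers Lect2 ran from 823 to 1812, with a median of 1190.2 and a mean of 1226 ± 326 (SD, n = 8). Median and mean lay between those of CT and C26, and the range overlapped with both groups. All 8 C26-CHO livers lay above the C26 mean and 7 above every C26 liver, with C26-CHO 3 the exception; C26-CHO 1 and C26-CHO 7 were the highest. Against CT the log2 fold change was -0.77 (SE 0.166, adjusted p = 2.68e-04), and 6 of 8 lay below every CT liver. Against C26 it was 0.65 (SE 0.166, unadjusted p = 5.66e-04), which missed the threshold after adjustment over all genes (adjusted p = 0.0646). Of 35 alternatives 3 called it: DESeq2 on the recovered reads (0.66, adjusted p = 0.00859), the fit with the mouse number as a block (0.65, adjusted p = 0.0399) and the fit without C26-CHO 3 (0.73, adjusted p = 0.0203). Without C26-CHO 1 and C26-CHO 7 it was 0.48 (adjusted p = 0.339), the highest adjusted p of these alternatives.

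**Figure D3:**
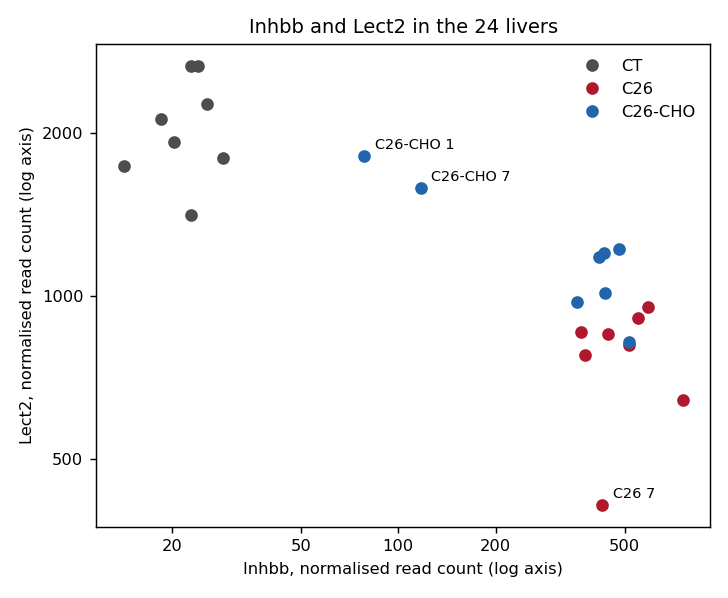
Inhbb (horizontal) and Lect2 (vertical) in each of the 24 livers, as normalised read counts on log axes, coloured by group. CT livers sit at the upper left with Lect2 of at least 1412, and C26 livers at the lower right with Lect2 of at most 954. C26-CHO 1 (78.3 and 1812) and C26-CHO 7 (117 and 1582) lie between CT and C26 in Inhbb and within the CT range in Lect2.

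Across the 9 genes, the count called in C26-CHO vs C26 was 0 with limma and 0 with the quasi-likelihood test of edgeR, and 1 with DESeq2 (Lect2); at an unadjusted limma p under 0.05 it was 2, Lect2 and Inhbb, where 13.05% of all tested genes (1832) lay under that limit. Over all genes limma called 99 and DESeq2 326 in this comparison, and limma called 5 without C26-CHO 1 and C26-CHO 7.

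**Figure D4:**
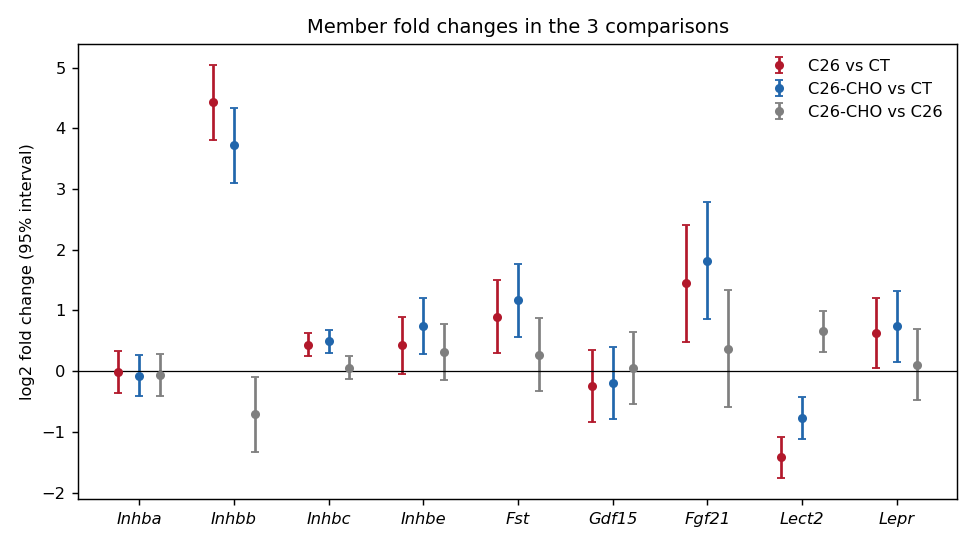
Log2 fold change of each of the 9 genes in C26 vs CT, C26-CHO vs CT and C26-CHO vs C26, with the 95% interval of the limma fit (n = 8 per group). Inhbb stands at 4.43 and 3.72 against CT, Lect2 at -1.42 and -0.77, and the intervals of Inhba and Gdf15 cross 0 in all 3 comparisons.

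Lepr, on chromosome 4 at 101717404 to 101815352 on the plus strand, has 7 transcripts in GENCODE, and gene levels do not separate the long receptor from the short and soluble forms. It ran from 22.4 to 65.4 in CT with a median of 53.1, from 44.8 to 162 in C26 with a median of 77.4, and from 36.0 to 181 in C26-CHO with a median of 88.8. Reads per library were few, 26 to 74 in CT, 39 to 140 in C26 and 46 to 214 in C26-CHO. In C26, 6 of 8 livers lay above every CT liver, and in C26-CHO 5 of 8 did; C26-CHO 1 was the lowest of its group. Means were 50.7 ± 13.7, 81.7 ± 36.4 and 91.6 ± 46.6 (SD, n = 8 each). C26-CHO vs CT gave 0.74 (SE 0.282, adjusted p = 0.0261), and 1.02 without C26-CHO 1 and C26-CHO 7 (adjusted p = 0.00193). That call was lost when any of 4 mice was left out: 0.58 without CT 2 and 0.57, 0.67 and 0.66 without C26-CHO 2, 4 and 8, with adjusted p of 0.0676, 0.0697, 0.0527 and 0.0534. C26 vs CT gave 0.63 (SE 0.282, adjusted p = 0.0519), just short of the threshold, and 11 of 35 alternatives called it, among them edgeR (0.70, adjusted p = 0.0357) and DESeq2 (0.69, adjusted p = 0.0245), in a range from 0.0245 to 0.129.

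Per kilobase of exon, the order of the 9 genes changed between control and tumour livers. In CT it was Lect2 (2251 normalised reads per kilobase), Inhbc (810.1), Inhbe (194), Gdf15 (89.6), Fgf21 (44.5), Inhba (14.9), Lepr (7.20), Inhbb (5.21) and Fst (5.06). The ranges over mice of neighbours in this order overlapped from Inhbe down to Inhba and from Lepr down to Fst. In C26 Inhbc came first (1085) and Lect2 second (846), with overlapping ranges, and Inhbb rose to the fourth place (118), overlapping with both Inhbe (248) and Fgf21 (98.0). In C26-CHO Lect2 (1334) and Inhbc (1132) again overlapped, and Inhbb (83.3) came after Fgf21 (134). Fst had 9.81 in C26 and 12.8 in C26-CHO, the lowest value of each group. The order at the low end depends on the length used: per kilobase of the longest transcript, a length chosen after seeing the data, Fst had 7.95, 15.4 and 20.2 in CT, C26 and C26-CHO, above Inhbb (5.21) in CT and above Lepr (14.7 and 16.5) and Inhba (14.6 and 13.99) in the tumour groups. The places of the other 6 genes in C26 and C26-CHO were the same with both lengths. Inhbe has 5319 bases under both, and its overlaps with the next lower gene rest on that length. From the RefSeq start it has 2756 bases, which would raise its level per kilobase. The overlaps were not computed with that length.

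Other genes of the pathways were taken from lists that do not hold the 9 genes, read against the background of 66.3% called in C26 vs CT. Of 11 tested ligands of the activin and TGF-beta family, 4 rose and 4 fell, with a median of -0.14. Nodal, an embryonic ligand, rose from 7.49 ± 3.83 to 29.9 ± 7.20 (SD, n = 8 each; log2 fold change 1.99, adjusted p = 6.19e-08). Bmp6, the liver endothelial ligand that sets hepcidin, fell (-1.62, adjusted p = 2.88e-09), as did Bmp4 (-1.24, adjusted p = 9.95e-08) and Bmp7 (-2.07, adjusted p = 6.19e-08). Of 11 receptors 5 rose and none fell, with a median of 0.23. The activin receptors Acvr1b and Acvr2b both had 1.67 (adjusted p = 4.95e-10 and 1.02e-08), and the BMP receptors Bmpr1a and Acvr1 had 0.56 and 0.32 (adjusted p = 3.48e-07 and 9.78e-04).

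Inhibitors of the family were called higher in 6 and lower in 3 of 11 tested, with a median of 0.38. The BMP-binding protein gene Bmper went from 8.54 ± 2.24 to 453 ± 77.3 (SD, n = 8 each; log2 fold change 5.59, adjusted p = 3.99e-13). The BMP antagonist Chrd had 0.92 and the TGF-beta-binding proteoglycan Dcn 1.02, while Tmprss6, the protease that lowers hepcidin, had -0.94; all 3 passed the test. Dcn is also in the stellate cell marker list. SMAD transducers were called higher in 2 and lower in 4 of 9, with a median of -0.21: Smad1 had 0.88, Smad9 -3.25, Smad3 -0.49 and the ubiquitin ligase Smurf1 -0.42. Of 12 genes known as SMAD targets 6 rose and 2 fell, with a median of 0.45. Cdkn1a, a cell cycle inhibitor that p53 also induces, had 4.65, Tgfbi 0.93 and Tgif1 0.80. Hamp, the hepcidin gene and a target of activin B and BMP6, was looked at after values were seen: it had -0.67 (adjusted p = 7.91e-04). Under quantile normalisation Hamp had -0.33 and was not called (adjusted p = 0.0863), and the other 34 alternatives called it, with adjusted p down to 5.58e-05. The SMAD target Id1, also looked at after values were seen, had -0.48 (adjusted p = 0.0502), and 14 of 35 alternatives called it, in a range from 0.0140 to 0.136. No gene of these 5 lists was called in C26-CHO vs C26.

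**Figure D5:**
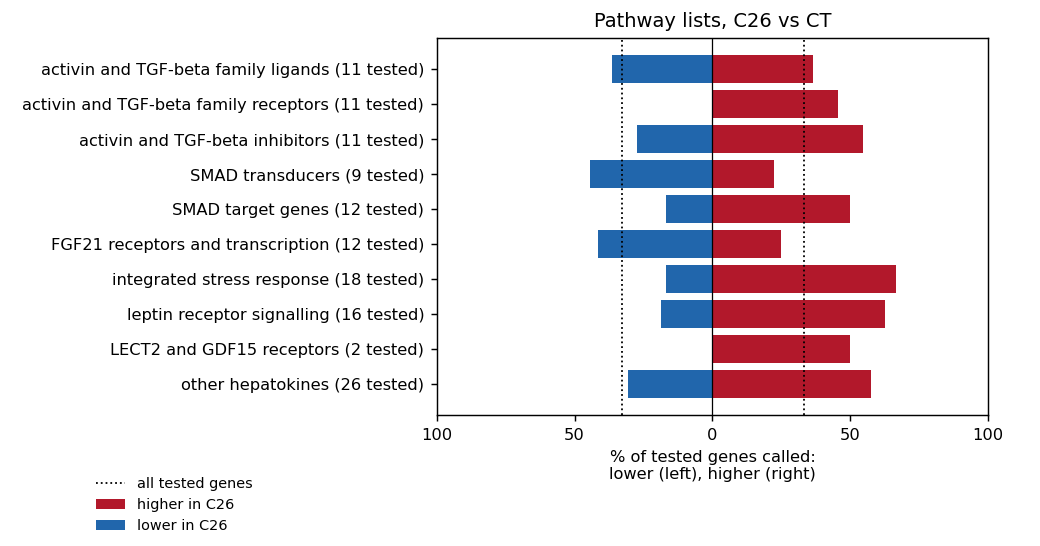
Share of the tested genes of each pathway list that was called lower (left) or higher (right) in C26 vs CT, in percent; dotted lines mark the shares over all tested genes, 32.9% lower and 33.3% higher. Receptors hold 5 higher and 0 lower of 11, and the integrated stress response 12 higher and 3 lower of 18.

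Genes around FGF21 were called higher in 3 and lower in 5 of 12, with a median of -0.14. Ppara had -1.69, the carbohydrate-response factor Mlxipl -1.12 and the receptor Fgfr3 -1.11, while Fgfr1, the main FGF21 receptor of fat, had 1.83. Fgfr1 was also called lower in C26-CHO than in C26 (-0.69, adjusted p = 0.0401), a call lost in most fits that leave out a library and without C26-CHO 1 and C26-CHO 7 (-0.61, adjusted p = 0.169). Genes of the integrated stress response were called higher in 12 and lower in 3 of 18, with a median of 0.82. Asparagine synthetase, Asns, went from 7.59 ± 4.80 to 538 ± 141 (SD, n = 8 each; log2 fold change 6.10, adjusted p = 4.80e-14), the glutathione-degrading enzyme Chac1 had 3.05, the serine synthesis enzyme Psat1 3.26 and Atf4 itself 0.68. In C26-CHO vs C26, Psat1 (-1.19, adjusted p = 0.0149) and the pseudokinase Trib3 (-1.15, adjusted p = 0.0208) were called lower; without C26-CHO 1 and C26-CHO 7 they had -0.94 and -0.98 (adjusted p = 0.0719 and 0.0734).

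Of 16 tested genes of leptin receptor signalling, 10 rose and 3 fell, with a median of 0.33. The feedback inhibitors Socs3 and Socs1 had 5.55 and 5.24, Stat3 1.73 and the phosphatase Ptpn1 1.45; cytokines other than leptin act through the same genes. Leprot, which encodes a protein that holds the leptin receptor back from the cell surface and was looked at after values were seen, had 0.28 (adjusted p = 0.00242). Of the receptors of LECT2 and GDF15, Met had 1.03 (adjusted p = 5.96e-11) and Tie1 -0.22 (adjusted p = 0.0542), and Ret was under the filter. Among 26 tested other hepatokines 15 rose and 8 fell, with a median of 0.60. Among those that rose were the acute phase proteins Lcn2 with 8.98, Orm1 with 4.51, Apcs with 4.46 and Itih3 with 4.04. Igfbp2, a binding protein of insulin-like growth factors, fell from 5110.4 ± 546 in CT to 346 ± 98.0 in C26 (SD, n = 8 each; log2 fold change -3.92) and was called higher in C26-CHO than in C26 (1.23, adjusted p = 0.00558; 1.02 and adjusted p = 0.0249 without C26-CHO 1 and C26-CHO 7).

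Whole livers hold several cell types, whose markers were summed per liver. All 10 hepatocyte markers were present in every group, with 4 called higher and 4 lower of 10 in C26 vs CT. Their sums were 1757228 to 2016777 in CT, 1620430 to 1873851 in C26 and 1329197.5 to 1874058 in C26-CHO, lowest in C26-CHO 1. Macrophage markers were called higher in 8 of 10, with a summed level of 5184 to 7619 in CT, 9817 to 12591 in C26 and 9347 to 16307 in C26-CHO. Endothelial markers were called higher in 6 and lower in 1 of 8 (sums of 4007 to 5552, 5208 to 7182 and 4455 to 7438). Stellate cell markers were higher in 5 and lower in 1 of 10 (4445 to 6293, 5573 to 8132 and 4646 to 9402). Cholangiocyte markers were higher in 2 of 6 tested (325 to 496, 5486 to 11411 and 2191 to 9498, lowest in C26-CHO 1). The median log2 fold change of these 6 in C26 vs CT was 0.04, so the rise of their sum does not describe most of them. Neutrophil markers rose in all 4 tested of 9 (37.3 to 79.3, 270.3 to 1019 and 180.0 to 510.2, lowest in C26-CHO 1), while the 1 tested marker of T and NK cells of 8 fell (62.2 to 124, 17.2 to 46.9 and 29.3 to 86.1). Of 7 markers of colon epithelium, the tissue the tumour line comes from, Cdx2 was at 0 in CT, and the summed level of the 4 with values was 62.0 to 147 in CT, 32.4 to 55.4 in C26 and 55.8 to 162 in C26-CHO. C26-CHO 1 had the highest sum of its group for T and NK cell markers and for colon markers. Between CT and C26 the sums of macrophage, cholangiocyte, neutrophil, T and NK cell and colon markers did not overlap. Those of hepatocyte, endothelial and stellate cell markers did overlap. The part of such shifts in the results for Inhbb, Inhbc, Fst, Fgf21 and Lect2 was not tested.

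Within groups, the 9 genes were related to each other over the 8 mice of each group, as 108 relations on log2 levels. None passed adjustment, and 11 had an unadjusted p under 0.05 (exact permutation test). The largest was between Inhbe and Lect2 in C26-CHO, with r = 0.89 and rho = 0.83 (exact permutation p = 0.00315 and 0.0154, adjusted p = 0.206 and 0.554), falling to 0.64 without C26-CHO 1 and C26-CHO 3, the mice farthest from the median. Inhbb and Lect2 in C26-CHO had r = -0.87 and rho = -0.60 (exact permutation p = 0.00756 and 0.132, adjusted p = 0.206 and 0.741) and -0.19 without C26-CHO 1 and C26-CHO 7, so that relation rests on those mice. Inhbc and Lect2 in C26 had r = 0.89 and rho = 0.83 (exact permutation p = 0.00764 and 0.0154, adjusted p = 0.206 and 0.554), and 0.38 without C26 6 and C26 7. Against Trib3, Socs3 and Cyp7a1, the last encoding the enzyme that limits the rate of bile acid production, none of 81 relations passed adjustment and 5 had an unadjusted p under 0.05 (exact permutation test).

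The genes whose levels followed each member most closely were ranked by Pearson r over the 24 livers after the mean of each group was taken off, among 10361 genes with a mean level of at least 50. Inhbb was followed by Col13a1 (r = 0.88), Itgb3 (0.87) and Esam (0.86), which without C26-CHO 1 had 0.85, 0.76 and 0.78 and ranked 2, 25 and 17. Lect2 was followed by Srr (0.89), Hsbp1 (0.88) and Ap2s1 (0.88), and Inhbe by Nectin2 (0.85), Etfdh (0.85) and G0s2 (0.82). For Inhbc the genes were Prpf31 (0.82), Dnajc11 (0.81) and Hyal1 (0.80), and for Fst they were Napg (0.81), Qpct (0.63) and Klhdc2 (0.61). Gdf15 was followed by Tent5c (0.79), Stat3 (0.74) and Ypel2 (0.73), and Fgf21 by Btbd10, Abcb4 and Acot1 (0.71, 0.71 and 0.70). Lepr had Podxl, Rps6ka3 and Slc36a4 (all 0.73), which without C26-CHO 1 ranked 15, 8 and 12 with 0.66, 0.69 and 0.67. Inhba had Scyl3 (0.71), Hipk2 (0.68) and Rala (0.67), which ranked 3, 1 and 9 without that liver, and Qpct and Klhdc2 ranked 10 and 12 for Fst. For the other members the genes named ranked 6 or better without C26-CHO 1. These r values are descriptions: the livers differ in depth, and the genes were picked as the highest of many.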

How the data were processed

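Liver RNA was sequenced from 24 mice in 3 groups of 8, grouped by the labels. Per the submitters' processing notes, reads were handled with bcl2fastq 2.17, FastQC, Trimmomatic 0.38, STAR 2.6.1d and DESeq2 1.22.2 on GRCm38; which tool counted the reads, on which annotation and whether by strand is not given in the sources used here. The authors deposited a normalised signal, the gene count divided by a size factor. Each value is a whole multiple of its library's step (100% within 0.001 of a read), so reads were recovered, 19.9 M to 30.5 M per library. Of 22392 identifiers 21959 had a symbol.

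The 14040 genes whose mean value reached 10 were tested with limma 3.58.1 (lmFit, eBayes with trend) in R 4.3.3 on log2(value + 1), with all 24 libraries in 1 fit and Benjamini-Hochberg adjustment, called under 0.05. The pseudocount of 1 understates changes of low genes. Size factors take the middle gene as unchanged, which matters where most genes are called. TMM and quantile scaling moved the median of all genes by less than 0.1 (log2). Both also centre the libraries on each other, so this cannot show a shift common to most genes. The recovered reads were also tested with edgeR 4.0.16 and DESeq2 1.42.0. Other alternatives were a pseudocount of 0.5 or 5, no filter or a mean of at least 50, TMM and quantile normalisation, the 2 compared groups alone, the mouse number as a block, each library left out and, chosen after seeing the data, C26-CHO 1 and C26-CHO 7 left out together. The scripts were tested on simulated data. For the fits, far fewer genes were changed in those data than were called here in C26 vs CT, so that test checks the code alone. Shares and correlations used exact permutation tests.

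The 9 genes and the pathway lists were chosen with earlier results of these data known. From each list, up to 4 tested genes with the smallest p in C26 vs CT and those called in C26-CHO vs C26 are named, except that a gene this rule selects is not reported here; Hamp, Id1 and Leprot were named after their values were seen. Coordinates are from GENCODE M21 on GRCm38. The mice carry no batch or date in the labels.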

Additional observations from a re-analysis of the deposited data

Results flagged for a closer look

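In 27 groups of 8 mice (9 genes in 3 groups), the lowest or highest mouse was set against the others on log2(value + 1). The measure was the gap to its neighbour over the range of the group, with a critical value of 0.526 for 8 mice. Gaps are therefore those of log2 levels, and gaps on the normalised counts printed beside them differ and could flag other mice. Chance flags about 1 in 20 such groups, and 2 stood out. Lect2 in C26 7 was 412, below the other C26 livers, with a gap of 0.533 of the range. Lepr in CT 2 was 22.4, below the other CT livers, with a gap of 0.602 of the range. CT 2 also had the highest Inhbe and Lect2 of the CT livers, 1849 and 2655.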

How the results depend on the processing

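For the 9 genes in 3 comparisons, 904 results under the alternatives kept their direction and side of the threshold, 16 became called, 4 lost a call and 18 turned sign; none of those that turned sign was called. Members called ranged from 4 to 6 in C26 vs CT and from 6 to 7 in C26-CHO vs CT, with Fst filtered out at a mean of at least 50. In C26-CHO vs C26, 1 was called with DESeq2 and 1 with the block, and 0 to 1 with a library left out. Genes called in C26-CHO vs C26 were 99, but 326 with DESeq2, 10 with the 2 groups alone, 5 without C26-CHO 1 and C26-CHO 7, and 23 to 273 with a library left out; the cause was not tested. Gdf15 in that comparison was -0.01 with edgeR (-0.0073) and DESeq2 (-0.0056). Leaving out a library gave -0.0908 to 0.0674 for Inhba in C26 vs CT, -0.137 to 0.0132 for Inhba, -0.0276 to 0.145 for Gdf15 and -0.0571 to 0.271 for Lepr in C26-CHO vs C26, and -0.151 to 0.00767 for Inhba and -0.416 to 0.000294 for Gdf15 in C26-CHO vs CT. Without C26-CHO 1 and C26-CHO 7 the share of Inhbc in C26-CHO minus C26 was 0.495 percentage points and that of Inhbe in C26-CHO minus CT -0.980.

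With the mouse number as a replicate block, 9643 genes (5 of the 9) were called in C26 vs CT, 97 (1 of the 9) in C26-CHO vs C26 and 9079 (7 of the 9) in C26-CHO vs CT. Same-numbered mice had correlations of -0.204 to 0.255, with 9 of 24 pairs over 0.1. Over all comparisons together, 5 of 24 best matches fell on the same number. This check does not settle whether the numbers pair the mice. Low read numbers limit Fst, Fgf21 and Lepr, and Inhbb in CT.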
